A study of Mus musculus with 7 samples.

Results

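The genes described here are Dppa2, Dppa3, Dppa4, Dppa5a, Ooep, Khdc3, Fbxo15 and Utf1, 8 mouse genes known as markers of the oocyte, the early embryo or pluripotent cells. They were chosen by name, matched through their Ensembl identifiers, and all 8 were found among the 29267 genes of the deposited tables. RNA-Seq was available for 7 groups of cells with 1 library each, so that no difference below has a replicate check and no p-value is given. An interval in parentheses is the exact Clopper-Pearson 95% interval of a ratio of TPM from the reads of both libraries, and covers counting error only.

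The OG2 line supplied mouse embryonic fibroblasts (MEFs) from embryos with a GFP reporter driven by an Oct4 promoter (GOF18 without its proximal enhancer). Retroviral Oct4, Sox2, Klf4 and c-Myc were introduced, and reprogramming took place in mES medium, which contains serum, LIF and vitamin C, or in 5C medium, a serum-free medium with N2 supplement, bFGF, vitamin C and LIF. Sorting by FACS on day 15 gave a pair of fractions from each medium, mES-Oct4GFP+ with mES-Oct4GFP- cells, and likewise 5C-Oct4GFP+ with 5C-Oct4GFP- cells, all labelled with 0 passages. From 5C-Oct4GFP+ cells came 5C-Oct4GFP+ (naive) cells, hereafter naive cells, in naive medium, with LIF and a pair of kinase inhibitors, and 5C-Oct4GFP+ (primed) cells, hereafter primed cells, in primed medium, with bFGF and activin A. R1 ESCs-primed were derived from R1, a mouse embryonic stem cell line that was not infected, on MEF feeder cells in primed medium and then kept on serum-coated plates with CHIR99021 and IWR-1 in place of bFGF and activin A. The labels give 20 passages for both kinds of converted cells and for R1 ESCs-primed, which a legend of the study places after a few days in naive or primed medium, while another legend gives those days alone for cells of the same name. All groups except R1 ESCs-primed carried the reporter and the 4 retroviral factors, and the labels name no clone and describe the reprogrammed cells as embryonic fibroblasts throughout. According to a legend of the study, 5C-Oct4GFP+ cells lost their GFP signal in primed medium, so that the name of primed cells gives their origin. R1 ESCs in naive medium and uninfected MEFs were not analysed here.

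As background, several of these genes are read in the oocyte, in germ cells and in the embryo before implantation, and are silenced as the epiblast moves on to the primed state that follows implantation. DPPA2 and DPPA4 bind chromatin together and act early in the activation of the embryonic genome, DPPA3 (Stella) protects DNA from demethylation in the zygote and restrains the methylation cofactor UHRF1, and DPPA5A is an RNA-binding protein with a KH domain. OOEP and KHDC3 (Filia) are KH-domain proteins of the subcortical maternal complex of the oocyte, FBXO15 is an F-box protein whose gene is a classic target of OCT4 and SOX2, and UTF1 is a chromatin-bound coactivator that is found in both naive and primed pluripotent cells.

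Positions are those of GRCm38 in the GENCODE M21 annotation, which lists each gene as protein-coding. Dppa4 (ENSMUSG00000058550, chromosome 16, 48283733 to 48294237, plus strand) and Dppa2 (ENSMUSG00000072419, chromosome 16, 48303908 to 48319723, plus strand) are next to each other with a gap of 9671 bases. Dppa5a (ENSMUSG00000060461, chromosome 9, 78367052 to 78368177, minus strand) and Ooep (ENSMUSG00000032346, chromosome 9, 78376109 to 78378725, minus strand) are a second pair of neighbours, with a gap of 7932 bases. Khdc3 (ENSMUSG00000092622, chromosome 9, 73101836 to 73104438, plus strand) lies elsewhere on the same chromosome. Dppa3 (ENSMUSG00000046323) spans 122626410 to 122630272 on the plus strand of chromosome 6, between Gdf3 and Nanog. Utf1 (ENSMUSG00000047751) spans 139943789 to 139945112 on the plus strand of chromosome 7.

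Promoter sequence from RefSeq (GRCm38.p6) was examined for 3 of the 8 genes, 250 bases before to 50 bases after each start site. The 3 sequences are printed 5′ to 3′ and belong to Utf1 and to both genes of the maternal complex, Ooep and Khdc3. The RefSeq start sites lie inside the GENCODE spans given above. Capitals mark each CG dinucleotide, the site of DNA methylation.
Utf1: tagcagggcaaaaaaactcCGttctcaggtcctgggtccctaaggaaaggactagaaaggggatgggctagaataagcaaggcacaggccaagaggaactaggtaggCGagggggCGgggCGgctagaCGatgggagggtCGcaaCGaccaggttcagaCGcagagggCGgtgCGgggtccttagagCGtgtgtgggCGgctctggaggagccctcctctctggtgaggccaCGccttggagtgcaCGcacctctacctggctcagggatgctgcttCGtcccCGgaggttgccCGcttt
Ooep: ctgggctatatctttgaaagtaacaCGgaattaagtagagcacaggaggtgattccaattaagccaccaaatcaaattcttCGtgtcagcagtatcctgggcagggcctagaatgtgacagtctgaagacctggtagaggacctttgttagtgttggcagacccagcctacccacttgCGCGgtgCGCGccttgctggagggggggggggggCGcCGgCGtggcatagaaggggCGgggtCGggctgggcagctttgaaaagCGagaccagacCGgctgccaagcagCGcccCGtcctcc
Khdc3: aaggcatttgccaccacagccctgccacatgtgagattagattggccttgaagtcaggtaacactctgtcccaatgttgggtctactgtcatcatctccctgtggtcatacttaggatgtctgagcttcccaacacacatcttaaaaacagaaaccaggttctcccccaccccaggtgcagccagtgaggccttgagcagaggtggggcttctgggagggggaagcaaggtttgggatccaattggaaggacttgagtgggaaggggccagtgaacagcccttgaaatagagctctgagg

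The window of Utf1 (chr7:139943606-139943905, plus strand) held 17 CG dinucleotides, that of Ooep (chr9:78378539-78378838, minus strand) held 15, and that of Khdc3 (chr9:73102148-73102447, plus strand) held 0. The median over 32851 promoters was 7. The observed over expected CG ratio was 0.615 for Utf1, which 34.8% of the promoters reached, and 0.602 for Ooep, which 35.6% reached. The GC box GGGCGG, sought on both strands, was found at 138, 133, 85 and 56 bases before the start of Utf1, with the first of these sharing a base with the next, and at 19 bases before the start of Ooep. It is held by 35.7% of all promoters in the table. None of the 3 windows held the octamer ATGCAAAT (1.74% of all promoters), the SOX2-OCT4 composite TTGTNATGC (0.731%) or the SOX motif CATTGT (12.6%). This says only that these letters are not in the 3 windows. The promoter of Fbxo15, described above as a target of OCT4 and SOX2, was not examined for these motifs.

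The libraries held between 6108252 and 11496615 expected counts and between 18229 and 19220 genes above 0. As a check of the labels, a list of 8 fibroblast markers, of which Twist2 was at 0 in mES-Oct4GFP+ and in naive cells, summed to 9.98 TPM in the mES-Oct4GFP+ library, 10.51 TPM in 5C-Oct4GFP+ cells and 14.56 TPM in naive cells. The sum was 497.6 TPM in the mES-Oct4GFP- library, 259.7 TPM in 5C-Oct4GFP- cells, 76.7 TPM in primed cells and 216.4 in R1 ESCs-primed, which had been induced on MEF feeders. A list of 7 naive markers summed to 1335 TPM in mES-Oct4GFP+ cells, 935.6 TPM in 5C-Oct4GFP+ cells and 1189 TPM in naive cells, against 73.05 TPM in the mES-Oct4GFP- library, 91.44 TPM in 5C-Oct4GFP- cells, 7.08 TPM in primed cells and 23.69 TPM in R1 ESCs-primed. The number at or above 1 TPM was 7, 7 and 7 in the first 3 of these and 6, 7, 2 and 5 in the other 4. Pou5f1 (Oct4), the endogenous gene behind the reporter, had between 1321 and 3640 TPM and was highest in mES-Oct4GFP- cells, where reads of the retroviral copy cannot be told apart from those of the gene.

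**Figure D1:**
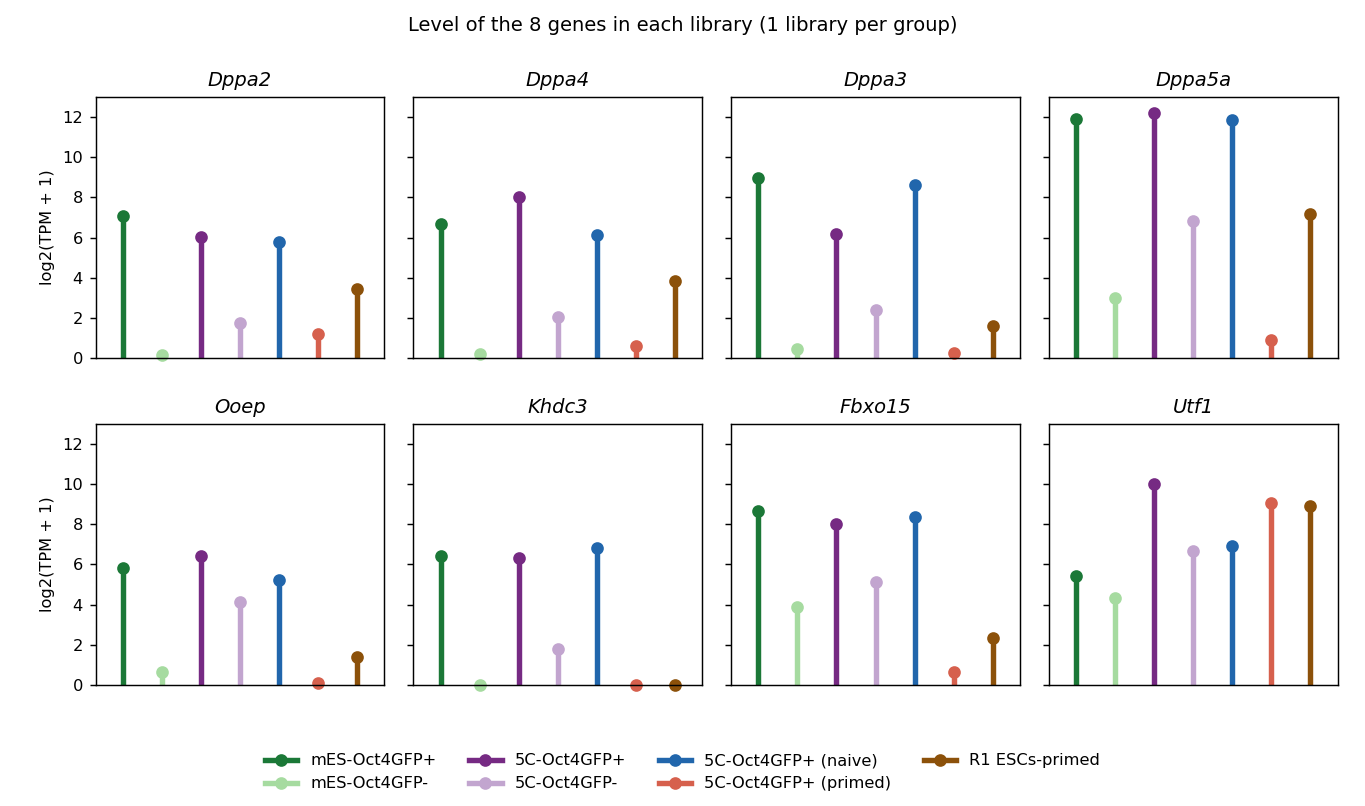
Level of each of the 8 genes in each library, as log2(TPM + 1) on the y axis, with 1 coloured stem per library. In 7 of the panels the 3 stems of mES-Oct4GFP+, 5C-Oct4GFP+ and naive cells stand above the other 4, and Utf1 is the exception, with 5C-Oct4GFP+ cells and both primed libraries on top.

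In the levels themselves, 7 of the 8 genes shared 1 outline. TPM, a share of all transcripts that takes account of gene length, was higher in mES-Oct4GFP+, 5C-Oct4GFP+ and naive cells than in each of the other 4 libraries. Utf1 was outside it, with its highest levels in 5C-Oct4GFP+ cells and in both primed libraries. Dppa5a was the most abundant of the 8 in each of the 3 libraries at the top, ranking 21, 13 and 24 among all genes in mES-Oct4GFP+, 5C-Oct4GFP+ and naive cells.

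Among the chromatin-binding pair, Dppa2 had 132.8 TPM in mES-Oct4GFP+, 63.16 in 5C-Oct4GFP+, 53.86 in naive cells and 9.98 in R1 ESCs-primed, but 2.37 in 5C-Oct4GFP-, 1.27 in primed cells and 0.12 in mES-Oct4GFP- cells. Its neighbour Dppa4 had 259.66 TPM in 5C-Oct4GFP+, 102.42 in mES-Oct4GFP+, 68.18 in naive cells, 13.35 in R1 ESCs-primed, 3.09 in 5C-Oct4GFP-, 0.54 in primed cells and 0.17 in mES-Oct4GFP- cells. The partners therefore had different libraries at the top: the Dppa2 level exceeded that of Dppa4 in mES-Oct4GFP+ cells, and the order was turned in 5C-Oct4GFP+ cells. At the low end, the interval of the ratio between 5C-Oct4GFP- and primed cells held 1 for Dppa2 (1.87, 0.899 to 3.95), as did that between primed cells and mES-Oct4GFP- cells for Dppa4 (3.18, 0.351 to 148.1).

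Dppa3, the zygotic protector, had 493.77 TPM in mES-Oct4GFP+ and 388.48 in naive cells, and 71.25 in 5C-Oct4GFP+ cells between them and the rest. It had 4.32 TPM in 5C-Oct4GFP-, 2.05 in R1 ESCs-primed, 0.37 in mES-Oct4GFP- and 0.21 in primed cells, and neighbours in this low part of the order did not differ beyond counting error. Dppa5a had 4714.1 TPM in 5C-Oct4GFP+, 3754.04 in mES-Oct4GFP+ and 3630.77 in naive cells. It had 143.4 TPM in R1 ESCs-primed, 110.35 in 5C-Oct4GFP-, 7.06 in mES-Oct4GFP- and 0.87 in primed cells, where it had 3 reads. Pseudogenes of Dppa5a and Dppa3 were not analysed here, and reads shared with them cannot be told apart.

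For both genes of the maternal complex, Ooep had 83.11 TPM in 5C-Oct4GFP+, 55.15 in mES-Oct4GFP+, 36.71 in naive cells and 16.49 in 5C-Oct4GFP- cells, against 1.64 in R1 ESCs-primed, 0.55 in mES-Oct4GFP- and 0.09 in primed cells. Khdc3 had 111.4 TPM in naive cells, 83.98 TPM in mES-Oct4GFP+ cells, 78.01 TPM in 5C-Oct4GFP+ cells and 2.43 in 5C-Oct4GFP- cells. It was without a read in mES-Oct4GFP-, primed cells and R1 ESCs-primed, where 3 reads would have given 0.606, 0.425 and 0.695 TPM. Khdc3 was thus the only one of the 8 with libraries at 0. Reads of Ooep were partly given as fractions of a count, which is how reads shared with other sequences are divided.

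Fbxo15 (ENSMUSG00000034391), the F-box gene on the plus strand of chromosome 18 (84934782 to 84981473), had 404.11 TPM in mES-Oct4GFP+, 324.29 in naive cells and 258.3 in 5C-Oct4GFP+ cells, followed by 34.01 in 5C-Oct4GFP-, 13.63 in mES-Oct4GFP-, 4.0 in R1 ESCs-primed and 0.58 in primed cells. Each step in this order was beyond counting error. Utf1, the coactivator, had 1033.62 TPM in 5C-Oct4GFP+, 527.53 in primed cells, 480.58 in R1 ESCs-primed, 119.09 in naive cells, 99.91 in 5C-Oct4GFP-, 42.17 in mES-Oct4GFP+ and 19.25 in mES-Oct4GFP- cells. It was the only one of the 8 above 1 TPM in all 7 libraries, and mES-Oct4GFP+ cells, at or near the top for the others, were next to last for Utf1.

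The sort on the reporter was compared first, since it asks which of the genes follow Oct4GFP in each medium. All 8 were higher in Oct4GFP+ than in Oct4GFP- cells in both media, where a gene was counted as higher or lower when log2(TPM + 1) differed by 2-fold and TPM was at least 1 in either library. In mES medium 17.9% of 16294 genes were higher by this rule and 28.8% lower. In 5C medium 8.45% of 15675 genes were higher and 22.6% lower. The median difference of the 8 genes in log2(TPM + 1) was 6.44 in mES medium and 4.01 in 5C medium, against -0.15 and -0.25 over all genes counted.

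In mES medium 6 of the genes had 17 reads or fewer in the Oct4GFP- cells. Dppa2, Dppa3 and Dppa4 had 1 read each in mES-Oct4GFP- cells, which put their TPM at 0.0904% (0.0023 to 0.509), 0.0749% (0.00188 to 0.415) and 0.166% (0.00428 to 0.949) of that in mES-Oct4GFP+ cells. Dppa5a was at 0.188% (0.11 to 0.301) from 17 reads and Ooep at 0.997% (0.321 to 2.34) from 5 reads. Khdc3 was at least 138.5-fold lower in mES-Oct4GFP- cells, with a floor of 3 reads in that library, and its exact interval began at 112.2. Fbxo15 kept 3.37% (2.67 to 4.21). Utf1 kept 45.6% (35.2 to 59), from 98 reads against 162, a ratio of 2.19 (1.69 to 2.85).

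In 5C medium the Oct4GFP- cells held a larger percentage of the Oct4GFP+ level of each gene, apart from Utf1. The level in 5C-Oct4GFP- cells was 3.75% (2.25 to 5.92) of that in 5C-Oct4GFP+ cells for Dppa2, 1.19% (0.716 to 1.87) for Dppa4 and 6.06% (3.27 to 10.3) for Dppa3. It was 2.34% (2.06 to 2.65) for Dppa5a and 3.11% (1.61 to 5.49) for Khdc3. The largest percentages were those of Ooep with 19.8% (16.5 to 23.6), Fbxo15 with 13.2% (11.3 to 15.3) and Utf1 with 9.67% (8.8 to 10.6). The 8 genes thus did not share 1 percentage, as the intervals of Dppa4, Dppa5a, Fbxo15 and Ooep were apart from each other. In such bulk libraries, fewer cells that express a gene and less RNA per cell cannot be told apart, and the fibroblast markers, higher in both Oct4GFP- libraries than in their Oct4GFP+ counterparts, moved with the sort too; their part in these differences was not tested.

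**Figure D2:**
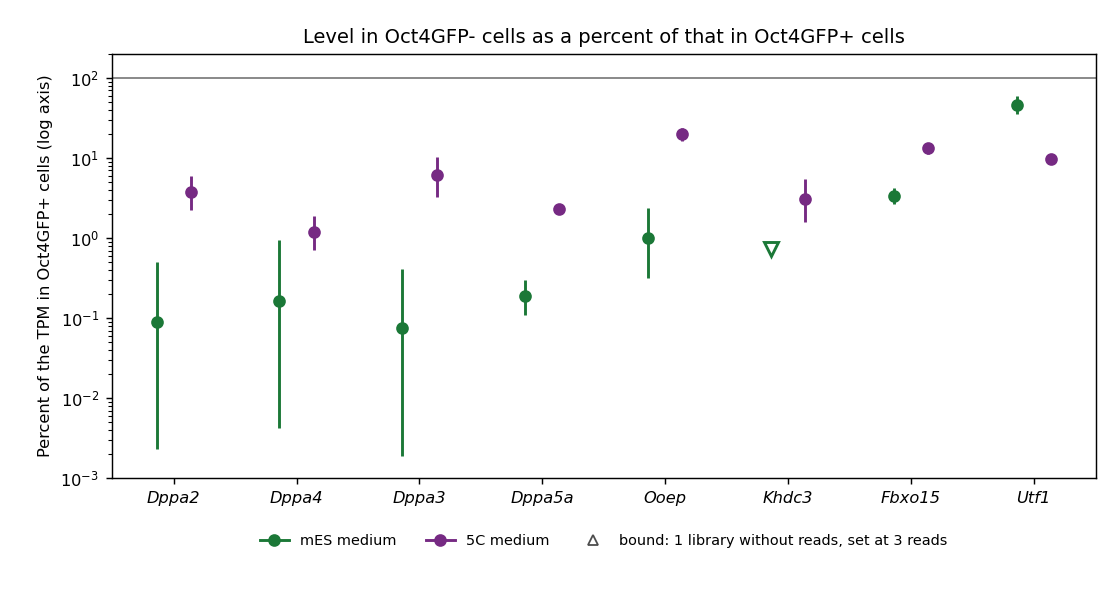
TPM in Oct4GFP- cells as a percent of TPM in Oct4GFP+ cells (log axis) for each gene, in mES medium (green) and in 5C medium (purple); bars are exact 95% counting intervals, the grey line is 100%, and the open triangle is a bound set at 3 reads. The purple point is above the green one for 7 genes, with Khdc3 in green at its bound, and below it for Utf1, at 9.67% against 45.6%.

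The medium was then compared within Oct4GFP+ cells, which asks how far the reprogrammed cells of the 5C state differ from those of mES medium. Dppa4 and Utf1 were higher in 5C medium, Dppa2 and Dppa3 were lower, and Dppa5a, Ooep, Khdc3 and Fbxo15 were within 2-fold. With 2 of 8 higher and 2 of 8 lower, the shares stood beside 13.7% and 13.5% of the 15196 genes counted. The median difference of the 8 genes was 0.11 in log2(TPM + 1), and that of all genes was -0.06.

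Utf1 had the largest difference, with a ratio of 24.5 (21 to 28.8) from 6808 against 162 reads. Dppa4 was 2.54-fold higher (2.3 to 2.8) in 5C-Oct4GFP+ cells, while its partner Dppa2 was 2.1-fold lower (1.9 to 2.33), so that the neighbouring genes had opposite directions. Dppa3 was 6.93-fold lower (6.11 to 7.88) in 5C-Oct4GFP+ cells. The study used Dppa3 as a naive marker and Ooep and Utf1 as markers of the 5C state and picked them on these RNA-Seq data, so that their directions here are not independent of that choice.

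The genes within 2-fold were not all alike. Khdc3 had a ratio of 0.929 (0.823 to 1.05), and its interval held 1. Dppa5a was 1.26-fold (1.22 to 1.29) and Ooep 1.51-fold (1.34 to 1.7) higher in 5C-Oct4GFP+ cells, and Fbxo15 was 1.56-fold lower (1.47 to 1.67), differences that are beyond the counting of reads but for which no spread between cultures is known.

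Among Oct4GFP- cells all 8 genes were higher in 5C medium than in mES medium. By the same rule 9.68% of 15859 genes were higher and 10.1% were lower, and the median difference in log2(TPM + 1) was 1.88 for the 8 genes and 0.04 for all genes. Ooep, with 16.49 against 0.55 TPM, had a ratio of 29.98 (12.6 to 93.7), and Dppa5a, with 110.35 against 7.06 TPM, had a ratio of 15.6 (9.57 to 27.2). Utf1 was 5.19-fold (4.17 to 6.51) and Fbxo15 2.5-fold (1.92 to 3.27) higher.

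The other members of the group rested on few reads. Dppa2 and Dppa4 had 19 reads each and Dppa3 had 14 in 5C-Oct4GFP- cells, against 1 read in mES-Oct4GFP- cells, with ratios of 19.8 (3.12 to 816), 18.2 (2.83 to 739.9) and 11.7 (1.79 to 497.5). Khdc3 had 12 reads in 5C-Oct4GFP- cells and was at least 4.01-fold higher there, by the floor of 3 reads in mES-Oct4GFP- cells, while its exact interval began at 2.79. When a minimum of 5 TPM was asked of either library, 4 of the genes were counted, and all 4 were higher. The fibroblast markers summed to 259.7 TPM in 5C medium against 497.6 TPM in mES medium, with 4 of the 8 markers lower and 1 (Thy1) higher in 5C medium. All 4 primitive endoderm markers were lower in 5C medium (a sum of 17.97 against 164.9 TPM), as were all 4 trophoblast markers (4.75 against 19.95 TPM), beside 10.1% of all genes. The part of these markers in the differences of the 8 genes was not tested.

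**Figure D3:**
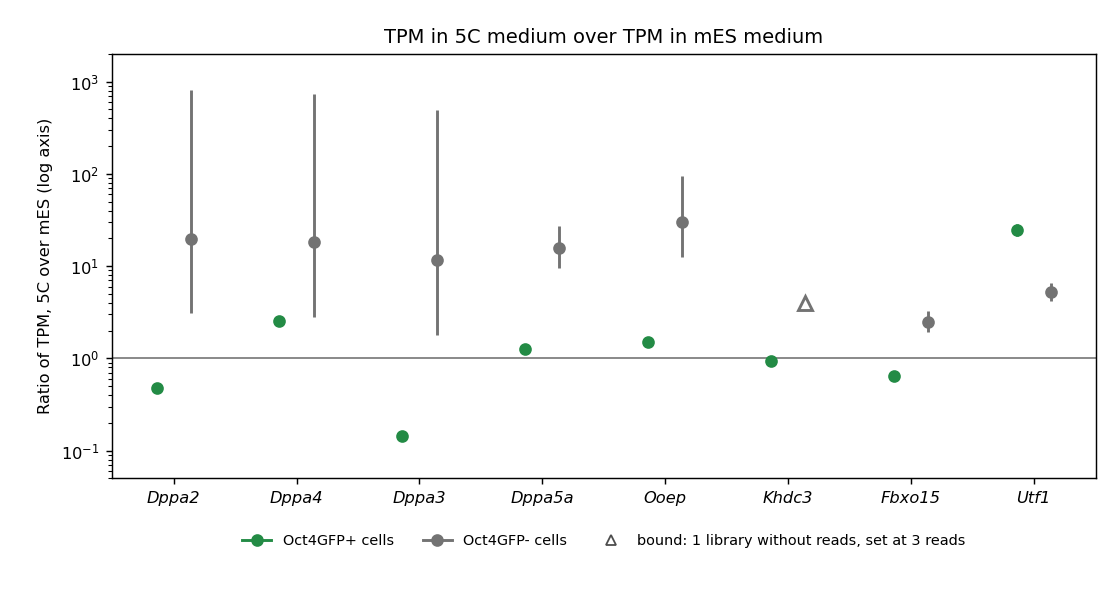
Ratio of TPM in 5C medium over mES medium (log axis) for each gene in Oct4GFP+ cells (green) and Oct4GFP- cells (grey); bars are exact 95% counting intervals, the line is a ratio of 1, and the open triangle is a bound set at 3 reads. All grey symbols lie above 1, whereas the green points run from 0.144 for Dppa3 to 24.5 for Utf1.

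The direction of the medium difference was thus not the same in both sorted fractions for Dppa2, Dppa3 and Fbxo15, which were lower in 5C-Oct4GFP+ cells and higher in 5C-Oct4GFP- cells than in their mES counterparts. With 1 library for each fraction and medium, the difference between the fractions was not tested. Utf1 and Dppa4 were higher in 5C medium in both fractions.

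Conversion of 5C-Oct4GFP+ cells in naive or primed medium was compared next, to ask which of the genes differ after it. The labels give 0 passages for 5C-Oct4GFP+ cells and 20 for both kinds of converted cells. Medium and passages in culture thus cannot be told apart. Both comparisons share the 5C-Oct4GFP+ library, and comparisons that share a library are not independent of each other. In naive medium Dppa3 was higher, Dppa4, Ooep and Utf1 were lower, and the other 4 genes were within 2-fold. The shares of 1 and 3 of 8 stood beside 10% higher and 17.5% lower among 14863 genes, with a median difference in log2(TPM + 1) of -0.30 for the 8 genes and -0.10 for all.

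After naive medium Dppa3 was 5.45-fold higher (4.82 to 6.19). Utf1 was 8.68-fold lower (8.01 to 9.42), Dppa4 3.81-fold lower (3.44 to 4.22) and Ooep 2.26-fold lower (2.01 to 2.56). Khdc3, with a ratio of 1.43 (1.29 to 1.58), and Fbxo15, with 1.26 (1.18 to 1.34), were on the higher side, and Dppa2, with 0.853 (0.757 to 0.96), and Dppa5a, with 0.77 (0.75 to 0.791), on the lower side, all within 2-fold.

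Against mES-Oct4GFP+ cells, naive cells had 1 gene higher, Utf1 by 2.82-fold (2.37 to 3.38), and 1 lower, Dppa2 by 2.47-fold (2.2 to 2.77). Here too the labels differ in passages, with 0 for mES-Oct4GFP+ and 20 for naive cells. Over 14477 genes 2.49% were higher and 6.27% lower, and the medians of log2(TPM + 1) differences were -0.33 for the 8 genes and -0.16 for all. Dppa3, at 388.48 against 493.77 TPM, had a ratio of 0.787 (0.728 to 0.85). Dppa4 and Ooep were both at 0.666 of the mES level (0.585 to 0.757 and 0.575 to 0.771), Fbxo15 was at 0.802 (0.753 to 0.855) and Khdc3 at 1.33 (1.18 to 1.49). Dppa5a had a ratio of 0.967 (0.937 to 0.998), and its log2(TPM + 1) difference of -0.05 became 0.10 with median-ratio rescaling, 0.07 with TMM factors and 0.03 with FPKM, so that no direction can be given.

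In primed medium 7 of the 8 genes were lower than in 5C-Oct4GFP+ cells and 0 were higher, beside 16.1% lower and 13.7% higher among 15067 genes. The median difference in log2(TPM + 1) was -6.29 for the 8 genes and 0.06 for all. Dppa5a went from 14685 reads to 3 and to 0.0185% (0.00382 to 0.0542) of its TPM, and Dppa4 to 0.208% (0.068 to 0.49). Ooep and Dppa3 were left with 1 read each, 0.108% (0.00234 to 0.517) and 0.295% (0.00741 to 1.65) of their TPM, and Fbxo15 with 5 reads, 0.225% (0.0732 to 0.527). Dppa2 kept 2.01% (1.12 to 3.35), and Khdc3, without a read, was at least 183.5-fold lower by the floor of 3 reads, with an exact interval that began at 148.8.

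Utf1 stayed apart from them in primed medium as well. It had 51% (49 to 53.1) of its 5C-Oct4GFP+ level, and its difference of -0.97 in log2(TPM + 1) lay just inside the 2-fold limit, which median-ratio rescaling (-1.04) and TMM factors (-1.03) put it beyond. The fibroblast markers were higher after this conversion, with 7 of 8 above the 2-fold limit and a sum of 76.7 against 10.51 TPM, and their part in the lower levels of the 7 genes was not tested.

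**Figure D4:**
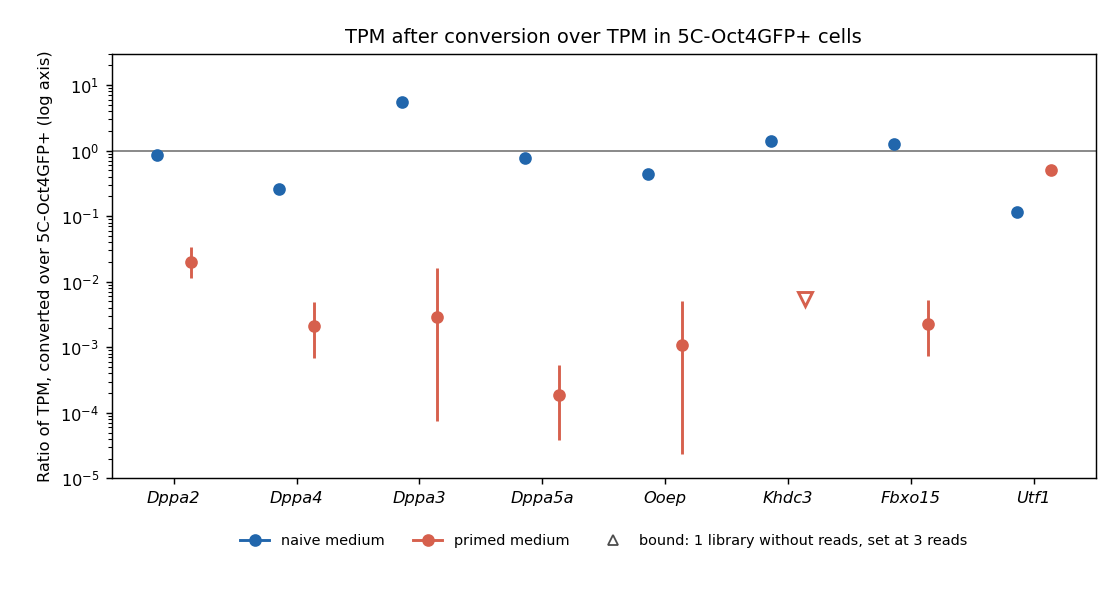
Ratio of TPM in converted cells over 5C-Oct4GFP+ cells (log axis) for each gene, after naive medium (blue) and primed medium (red); bars are exact 95% counting intervals, the line is a ratio of 1, and the open triangle is a bound set at 3 reads. The red symbols of 7 genes lie at or below 0.0201, and that of Utf1 at 0.51 lies above its blue point at 0.115.

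Set directly against each other, naive cells had 7 genes higher and Utf1 lower than primed cells, beside 16.7% higher and 22.2% lower among 15249 genes. The medians of log2(TPM + 1) differences were 6.15 for the 8 genes and -0.14 for all. The ratio was 4173 (1421 to 20150) for Dppa5a, 559.1 (238.1 to 1716) for Fbxo15, 126.3 (53.3 to 387.7) for Dppa4 and 42.4 (25.4 to 76.3) for Dppa2. Dppa3 and Ooep, with 1 read each in primed cells, had ratios of 1850 (332.7 to 73390) and 407.9 (85 to 18890), and Khdc3 was at least 262-fold higher in naive cells by the floor of 3 reads, with an exact interval that began at 212.6. Utf1 was 4.43-fold lower (4.08 to 4.82) in the naive cells.

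Both primed populations were compared last. They differ in origin, and the study's methods also describe a change of medium for R1 ESCs-primed, so that origin and medium cannot be told apart. In primed cells 6 genes were lower than in R1 ESCs-primed and 0 were higher, out of 7 genes counted, since Khdc3 was without a read in both. Among 14600 genes 5.09% were lower and 2.3% higher, and the medians of log2(TPM + 1) differences were -1.50 for the 8 genes and -0.03 for all. Dppa5a was 164.8-fold lower (55.6 to 800.1), with 0.87 against 143.4 TPM, Dppa4 24.7-fold lower (10.1 to 77.7) and Dppa2 7.86-fold lower (4.46 to 14.8).

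Ooep (18.2, 3.19 to 903.5), Dppa3 (9.76, 1.19 to 451.3) and Fbxo15 (6.9, 2.52 to 23.3) were lower by ratios that rest on 1, 1 and 5 reads in primed cells. With a minimum of 5 TPM in either library, 3 genes were counted as lower, and they were Dppa2, Dppa4 and Dppa5a. Utf1, at 527.53 against 480.58 TPM, had a ratio of 1.1 (1.04 to 1.16). Naive markers had the same direction, with 3 of the 5 that were counted lower and 0 higher in primed cells, and the fibroblast markers, which summed to 76.7 TPM there and 216.4 TPM in R1 ESCs-primed, were lower for 7 of 8; their part in the differences was not tested.

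The genes of known partners of the 8 proteins were then read from lists, as they show which partners had RNA in these cells. Of the 5 listed partners in the subcortical maternal complex, 4 reached 1 TPM in either fraction from mES medium. There 2 were higher and 1 lower in Oct4GFP+ cells, beside 17.9% and 28.8% of all genes. These are RNA levels, and protein of the complex was not measured. Besides Ooep and Khdc3, Nlrp4f, which encodes another of its proteins, had 19.3, 32.88 and 19.09 TPM in mES-Oct4GFP+, 5C-Oct4GFP+ and naive cells and at most 0.75 TPM in the other 4 libraries. Ooep and Khdc3 shared this split of the libraries, as did most of the 8 genes, but not each level. Ooep had 16.49 TPM in 5C-Oct4GFP- cells, where Nlrp4f had 0.54 TPM, and Khdc3 was highest in naive cells. Nlrp5 (MATER), the core of the complex in the oocyte, had 2.21 TPM or less, and Padi6 0.4 TPM or less, in each of the 7 libraries. Tle6, with 6.25 to 42.61 TPM, and Zbed3, with 10.72 to 46.32 TPM, were present in all 7, and Zbed3 was lower in mES-Oct4GFP+ than in mES-Oct4GFP- cells, against the direction of Ooep.

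Of 6 oocyte markers, only Zp3, a protein of the egg coat, reached 1 TPM in any library, with 34.05 TPM in naive cells, 13.7 TPM in the mES-Oct4GFP+ library and 2.94 TPM in 5C-Oct4GFP+ cells. Gdf9, Bmp15, Figla, Nobox and Zp2 had at most 0.65 TPM. Germ cell markers were read beside them, and all 5 were higher in mES-Oct4GFP+ than in mES-Oct4GFP- cells, as were 17.9% of all genes. Dazl, an RNA-binding protein of germ cells, had 191.46 TPM in mES-Oct4GFP+, 135.04 in naive cells and 9.1 in 5C-Oct4GFP+ cells and at most 0.24 TPM elsewhere. For Dazl, as for Dppa3, 5C-Oct4GFP+ cells lay between the top libraries and the rest. The other germ cell markers did not share this order. Mael (12.73 TPM) and Sycp3 (13.36 TPM) were highest in 5C-Oct4GFP+ cells, against 3.06 and 7.29 TPM in mES-Oct4GFP+ cells. Ddx4 had 5.43 TPM in 5C-Oct4GFP+ cells, between mES-Oct4GFP+ (8.22 TPM) and naive cells (3.97 TPM), and Tex101 had 0.18 TPM.

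The KH-domain relatives Khdc1a, Khdc1b and Khdc1c, members of 1 gene family whose reads could be split among them, did not follow Khdc3 in 5C-Oct4GFP+ cells. Khdc1a had 30.43 TPM in mES-Oct4GFP+ and 31.8 in naive cells, and Khdc1c had 38.69 and 48.28. Both were without a read in 5C-Oct4GFP+ cells, where 3 reads would have given 0.275 and 0.281 TPM and Khdc3 had 716 reads. All 3 relatives were lower in 5C than in mES medium among Oct4GFP+ cells, beside 13.5% of all genes. They were higher again in naive cells, beside 10% of all genes, with a median difference of 5.04 in log2(TPM + 1) upon conversion. Dppa1, another gene of the Dppa series, had at most 1.26 TPM.

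Of the 5 listed partners of DPPA3 in DNA methylation, Uhrf1 and Tet1 were higher in mES-Oct4GFP+, 5C-Oct4GFP+ and naive cells than in each of the other 4 libraries, as Dppa3 was, with a narrower range. Uhrf1, the cofactor that DPPA3 restrains, had between 77.62 and 356.62 TPM and was within 2-fold between 5C-Oct4GFP+ and mES-Oct4GFP+ cells (315.44 against 291.87 TPM), where Dppa3 differed by 6.93-fold. Tet1, an oxidase of methylated DNA, had between 4.43 and 131.58 TPM and was the only one of the 5 higher in 5C-Oct4GFP+ cells (131.58 against 51.77 TPM), where 0 were lower. Tet3, the oxidase from which DPPA3 shields the maternal genome, had 17.27 and 20.12 TPM in the Oct4GFP- libraries and 1.15 to 4.95 TPM in the 3 libraries where Dppa3 was high. The SCF partners of FBXO15 (Skp1, Cul1 and Rbx1) were between 75.21 and 580.94 TPM in all libraries. None of the 3 differed by 2-fold between Oct4GFP+ and Oct4GFP- cells in either medium, while Fbxo15 differed by 29.6-fold (23.8 to 37.5) in mES medium and by 7.59-fold (6.56 to 8.83) in 5C medium. In primed cells Cul1 was 2.61-fold higher (2.44 to 2.8) than in 5C-Oct4GFP+ cells, opposite to Fbxo15, with Skp1 and Rbx1 within 2-fold.

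Genes of the cleavage embryo that are known to depend on DPPA2 and DPPA4 were at low levels. Zscan4f had 6.54 TPM in mES-Oct4GFP+, 2.11 in R1 ESCs-primed and 1.05 in naive cells, and the other 4 genes of a list of 5 had at most 2.66 TPM in each of the 7 libraries. Zscan4f, with 41 reads in mES-Oct4GFP+ cells, and Zscan4c, with 20 reads, were higher there than in the mES-Oct4GFP- library. Both were lower in 5C-Oct4GFP+ cells, by 7.43-fold (3.71 to 16.9) for Zscan4f at 0.88 TPM and by 11.1-fold (3.39 to 60.1) for Zscan4c at 0.24 TPM. Dppa4 had its highest level in 5C-Oct4GFP+ cells, while Dppa2 was lower there than in mES-Oct4GFP+ cells (63.16 against 132.8 TPM). The part of either gene in the Zscan4 levels was not tested. Zscan4 genes are near-identical copies, so that their single values are uncertain.

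**Figure D5:**
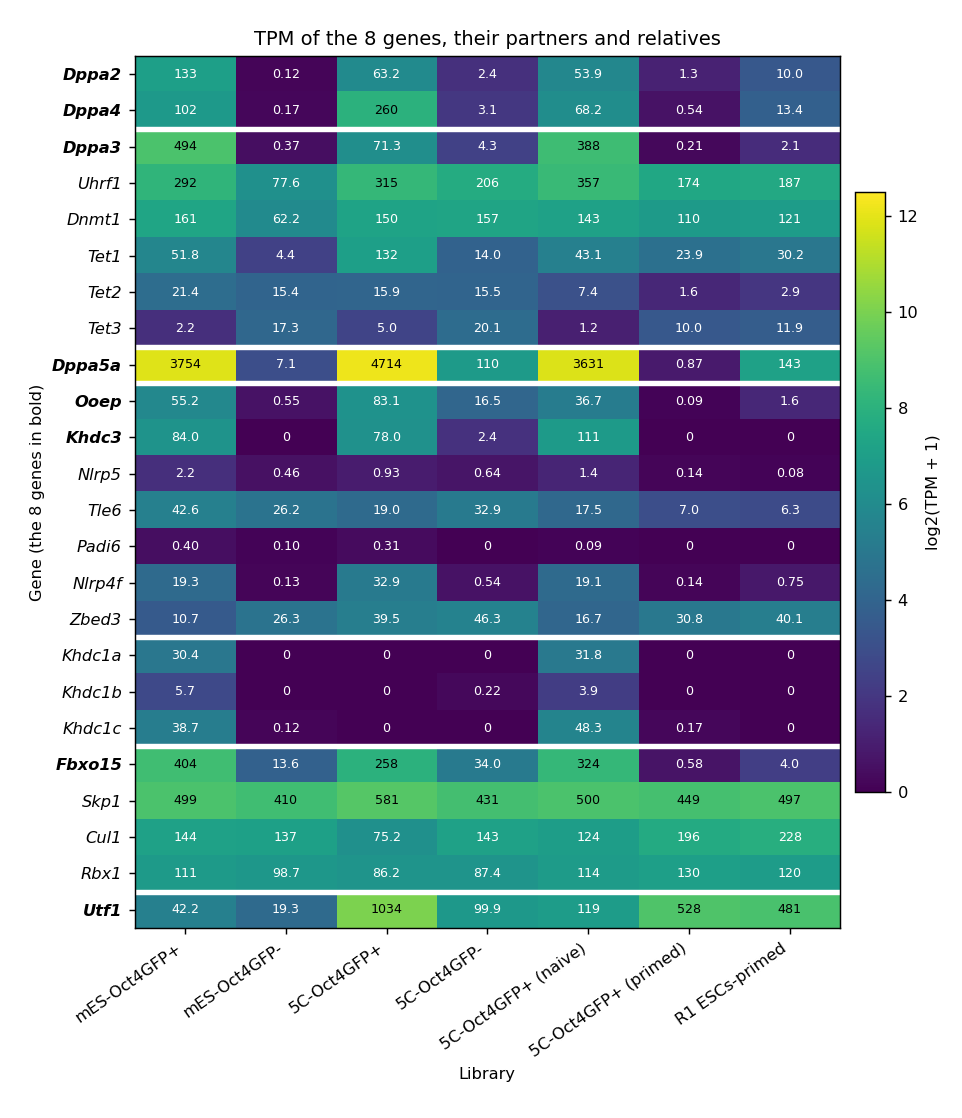
TPM (numbers) and log2(TPM + 1) (colour) of the 8 genes, in bold, with partners and relatives, 1 row per gene and 1 column per library. Nlrp4f, like Ooep and Khdc3, is higher in mES-Oct4GFP+, 5C-Oct4GFP+ and naive cells than in the other libraries. Khdc1a and Khdc1c are at 0 in 5C-Oct4GFP+ cells where Khdc3 is at 78.01 TPM, and Skp1, Cul1 and Rbx1 span a narrower range than Fbxo15.

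All of the genes except Ooep belong to the 24 candidate factors from which the reprogramming cocktail was first found, and the other 17 candidates were read as a list. In the comparison of mES-Oct4GFP+ with mES-Oct4GFP- cells 8 of these 17 were higher and 3 lower, beside 17.9% and 28.8% of all genes, and in that of 5C-Oct4GFP+ with 5C-Oct4GFP- cells 9 were higher and 2 lower, beside 8.45% and 22.6%. The lower genes were Pou5f1, Klf4 and Myc in mES medium and Klf4 and Myc in 5C medium, all of them factors also delivered by retrovirus, with 1613.31 TPM for Klf4 and 1883.88 TPM for Myc in mES-Oct4GFP- cells. From 5C-Oct4GFP+ to primed cells 11 were lower, beside 16.1% of all genes. In that comparison 1, Eras, was higher, with 42.87 and 87.21 TPM, beside 13.7% of all genes. Eras, a RAS-like gene of embryonic stem cells, had its highest levels in 5C-Oct4GFP+ cells and both primed libraries, as Utf1 did, and Dnmt3l, a cofactor of DNA methylation, had 525.34 TPM in 5C-Oct4GFP+ cells and at most 20.21 TPM elsewhere.

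Among genes next to the 8 on their chromosomes, those of Dppa3 and Dppa2 had partly similar levels. Nanog, 77217 bases from Dppa3, had 696.74, 252.93 and 734.76 TPM in mES-Oct4GFP+, 5C-Oct4GFP+ and naive cells but kept 118.45 TPM in primed cells, where Dppa3 had 0.21 TPM. Gdf3, on its other side, had 103.25, 94.46 and 129.87 TPM in the same 3 libraries and 0.14 TPM in primed cells. Morc1, 111514 bases from Dppa2, had 129.33, 189.58 and 123.45 TPM in those libraries and 0.11 TPM in primed cells. Ddx43, next to Ooep, was low throughout but had the same split, with 6.44, 3.28 and 2.98 TPM in those libraries and 0.21 to 1.58 TPM elsewhere. Kndc1, 2252 bases from Utf1, had 18.21 TPM in 5C-Oct4GFP+ cells and at most 3.19 elsewhere, so that both genes had their highest level in the same library. Timm21 lies on the opposite strand within Fbxo15, and reads of either strand cannot be told apart by this library type; its levels, 16.54 to 50.56 TPM, were lowest in the 3 libraries where Fbxo15 was highest. Gm20509 overlaps Khdc3 on the same strand and was listed at 0 throughout.

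Across the 7 libraries, which share their depth among all genes and so are a description only, Pearson's r of log2(TPM + 1) between pairs of the 7 genes other than Utf1 was from 0.812 (Dppa2 and Fbxo15) to 0.971 (Dppa3 and Khdc3), and it was 0.967 for the neighbours Dppa2 and Dppa4 and 0.936 for Dppa5a and Ooep. With Utf1 it was from -0.219 (Fbxo15) to 0.295 (Dppa4). Among 11803 genes with at least 10 TPM in any library, those closest to Dppa3 were Zfp977 (r = 0.999, 0.28 to 52.49 TPM), Ptgr1 and Rpp25, those closest to Khdc3 were Lrrc34 (r = 0.999, 1.86 to 81.6 TPM), 1700061G19Rik and Zfp981, and those closest to Fbxo15 were Fam208a, Gm13212 and Zfp975. Closest to Dppa4 were Pla2g10 (r = 0.992, 0 to 35.73 TPM), Smarcad1 and Ankmy2. For Dppa2 (Vps50, Zfp989 and Rrn3), Dppa5a (Acacb and Slc9b1), Ooep (Gsr, Alg13 and Slfn3) and Utf1 (Ccnk, Cep295 and Gclm) the list held genes with a far smaller range, such as Vps50 with 32.51 to 44.02 TPM and Ccnk with 43.57 to 76.47 TPM, since r does not weigh the size of a change. Spearman's rho placed 8 of the 24 genes so chosen in the top 3 or tied with it.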

How the data were processed

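RNA-Seq of total RNA from 7 mouse cell populations, 1 library each, was used with groups taken from the sample titles. According to the study's methods and the submitters' processing notes, the authors aligned reads to mm10 with Bowtie and quantified genes with RSEM, whose versions are not given in the sources used here. The deposited tables hold, per gene, the expected count, TPM (transcripts scaled to a fixed total) and FPKM that the authors obtained in this way. The library kit does not mark strand.

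Differences were taken in log2(TPM + 1) over all genes with TPM of at least 1 in either library, and 2-fold counted as higher or lower. Intervals of ratios of TPM came from expected counts rounded to whole numbers, and a library without reads was set to a floor of 3 reads; both cover counting error only. Of the 29267 gene identifiers, 28756 matched a symbol. Depth limits low values, as 3 reads of a gene of median length gave 0.214 to 0.41 TPM. With 1 library per group there is no estimate of the spread between cultures and no test.

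The 8 genes and all lists (partners, relatives, fibroblast, oocyte, germ cell, naive, primed, pluripotency, cleavage-stage, trophoblast and primitive endoderm markers) were chosen with earlier results of these data known. Named are all 8 genes, the highest and lowest of each list, the 3 genes with the highest Pearson r to each of the 8, and neighbours within 3 genes; other names were chosen after their values were seen, and 1 gene that the rule names is not reported here. Alternatives were a pseudocount of 0.1, a minimum of 5 TPM or none, FPKM, median-ratio rescaling, TMM factors (edgeR 4.0.16, R 4.3.3), limits of 1.5-fold and 4-fold, and Spearman's rho. Scripts ran in Python 3.11.15 with pandas 2.3.3 and scipy 1.17.1 and were tested on simulated data.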

Additional observations from a re-analysis of the deposited data

Results flagged for a closer look

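For 3 of the 8 genes the difference between 5C and mES medium had opposite directions in the sorted fractions, each of which is 1 library per medium, so that the difference between fractions was not tested. In log2(TPM + 1), 5C minus mES medium, Dppa2 differed by -1.06 in Oct4GFP+ cells and by 1.59 in Oct4GFP- cells. For Dppa3 the values were -2.78 and 1.96. For Fbxo15 they were -0.64, within the 2-fold limit, and 1.26.

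The Oct4GFP- values of Dppa2 and Dppa3 rest on 1 read each in mES medium, against 19 and 14 reads in 5C medium. Those of Fbxo15 rest on 82 and 198 reads.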

How the results depend on the processing

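The number of the 8 genes counted as higher or lower stayed within 1.5 times the reported one in 9 of 9 comparisons with a pseudocount of 0.1, without a minimum, with FPKM, with median-ratio rescaling, with TMM factors and at 1.5-fold. With a minimum of 5 TPM it was within that range in 7 comparisons, and was 4 between Oct4GFP- cells of both media and 3 between primed cells and R1 ESCs-primed, since fewer genes were counted. At 4-fold it was within it in 4 comparisons, and was 2 between Oct4GFP+ cells of both media, 3 between Oct4GFP- cells of both media, 2 for conversion in naive medium, 0 between naive cells and mES-Oct4GFP+ cells and 3 between primed cells and R1 ESCs-primed. Of 72 differences of single genes, median-ratio rescaling moved 12 beyond counting error, TMM factors 10, FPKM 6 and the pseudocount 0. Rescaling shifted the median of all genes by over 0.1 in log2 in 3 comparisons: by -0.20 (TMM -0.17) between Oct4GFP+ and Oct4GFP- cells in 5C medium, by -0.15 (-0.12) between naive cells and mES-Oct4GFP+ cells and by -0.13 (-0.11) between naive and primed cells. FPKM stood 0.12 above TPM in the median between Oct4GFP+ and Oct4GFP- cells in mES medium. No paired analysis was possible because each group has 1 library.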

Other observations

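Other marker lists gave values beside those of the 8 genes. Among 6 primed markers, 4 were higher and 0 lower in 5C-Oct4GFP+ cells compared with the mES-Oct4GFP+ library, beside 13.7% and 13.5% of all genes. In primed cells 2 were higher and 0 lower than in 5C-Oct4GFP+ cells, beside 13.7% and 16.1% of all genes. Otx2, a regulator of the epiblast after implantation, had 0.41 TPM in the mES-Oct4GFP+ library, 189.42 TPM in 5C-Oct4GFP+ cells, 1.15 TPM in naive cells and 214.48 TPM in primed cells. Fgf5, a growth factor of the same stage, had 11.69 TPM in 5C-Oct4GFP+ cells and 174.67 TPM in primed cells. Lef1, of the same list, went the other way within 2-fold. It had 43.94 TPM in the mES-Oct4GFP+ library, 31.22 TPM in 5C-Oct4GFP+ cells, 45.66 TPM in naive cells and 27.45 TPM in primed cells. Of 6 pluripotency markers, 3 were higher and 2 lower in mES medium in Oct4GFP+ compared with Oct4GFP- cells, beside 17.9% and 28.8% of all genes. Tdgf1, a NODAL coreceptor, was highest in 5C-Oct4GFP+ cells at 709.53 TPM.

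Of 4 primitive endoderm markers, all 4 were higher in primed cells than in 5C-Oct4GFP+ cells, beside 13.7% of all genes, and Sox17 had 60.37 and 0.59 TPM. Of 4 trophoblast markers, 2 were counted in that comparison and both were higher, with Eomes, which also marks mesendoderm, at 81.21 and 7.49 TPM. Cdx2 had 16.26 TPM in naive cells, 10.57 TPM in the mES-Oct4GFP+ library and 0 TPM in 5C-Oct4GFP+ cells. Among the germ cell markers, Tex101 was listed at 24.5, 0.18 and 17.49 TPM in the mES-Oct4GFP+, 5C-Oct4GFP+ and naive libraries, and Mael at 3.06, 12.73 and 2.77 TPM.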
